A study of Arabidopsis thaliana with 6 samples.

Results

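Seedlings of the Arabidopsis sfr6 mutant kept at 20 °C are described here against both other lines of the series, the wild type and cls8, held at the same temperature. A probe set counted when the sfr6 value lay outside the values of both other lines in the same direction. Of the 13648 probe sets bright enough to be kept, 88 lay outside both lines by at least 2-fold, 11 of them higher and 77 lower in sfr6. The 2-fold rule compared 3 of the 6 ATH1 arrays, with 1 array for each line. The 3 arrays at 4 °C were read as a check. They also entered the choice of probe sets kept and the test described below. All plants were whole Col-0 seedlings, 7 days old, grown on MS medium at 20 °C after 4 days of stratification at 4 °C and then left for 3 h in a chamber at 20 °C or at 4 °C before harvest. The sfr6 line is an EMS mutant, and it was set against the wild type and against cls8, also an EMS mutant. Each array received RNA pooled from 40 to 60 plants, so variation between plants is not visible in any value. An EMS line can carry mutations besides the one it is known for, and the labels name no backcross.

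As background, sfr6 is known as a freezing-sensitive line that lacks MED16, a subunit of the Mediator complex. Mediator links transcription factors bound to DNA with RNA polymerase II, and MED16 belongs to its tail, the part that such factors touch. In Arabidopsis, MED16 is known for its part in the induction of cold-regulated genes downstream of the CBF factors, of defence genes that answer to jasmonate and ethylene, and of genes for iron uptake. The cls8 line is sensitive to chilling and is altered in ribonucleotide reductase, an enzyme of DNA precursor synthesis. Neither mutated gene had a named probe set, so the line labels could not be checked against them.

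The values are intensities on a linear scale, each array having been scaled to the same trimmed mean. At 20 °C the median intensity was 42.6 in sfr6, 45.2 in the wild type and 44.75 in cls8. The sfr6 array had 1101 outlier cells, against 406 on the wild-type array and 922 on the cls8 array. Of 6 control pairs for the ratio of the 3′ to the 5′ signal, 2 each for actin, GAPDH and ubiquitin, sfr6 had the highest ratio in 1. That actin pair gave 5.14 in sfr6, against 3.79 in the wild type and 2.79 in cls8, while the other actin pair gave 2.08 in sfr6, 2.48 in the wild type and 1.47 in cls8. The 25S ribosomal RNA control read 2558.9 in sfr6, 2716.3 in the wild type and 481.5 in cls8. Both cls8 titles carry the word repeat, so that what belongs to a repeated run and what belongs to cls8 cannot be told apart. The part of these array features in the results was not tested. The 7 measured markers of root tissue, guard cells and dividing cells differed between sfr6 and the mean of the other lines by -0.31 to 0.04 on the log2 scale, with a lowest limma adjusted p of 0.699.

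Differences are given on the scale of log2(intensity + 14.2), where the pseudocount is the 25th percentile of all values, so the differences of dim transcripts are understated. The gap is the difference between sfr6 and the nearer of the other lines. The 11 higher probe sets made up 0.0806% of those kept and the 77 lower ones 0.564%, which together is 0.645%. Lying outside both lines by any amount was common, at 34.5% higher and 36.2% lower, and was therefore not read as a difference by itself. With the wild type as the line that lies outside, 2 probe sets were higher (0.0147%) and 1 lower (0.00733%) by at least 2-fold. With cls8 in that place, 9 were higher (0.0659%) and 10 lower (0.0733%). The correlation of log2 values across the kept probe sets, given as a description, was 0.974 for sfr6 with the wild type, 0.969 for sfr6 with cls8 and 0.981 for the wild type with cls8. By direct pairs, 132 probe sets differed at least 2-fold between sfr6 and the wild type, 180 between sfr6 and cls8 and 41 between the wild type and cls8.

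**Figure D1:**
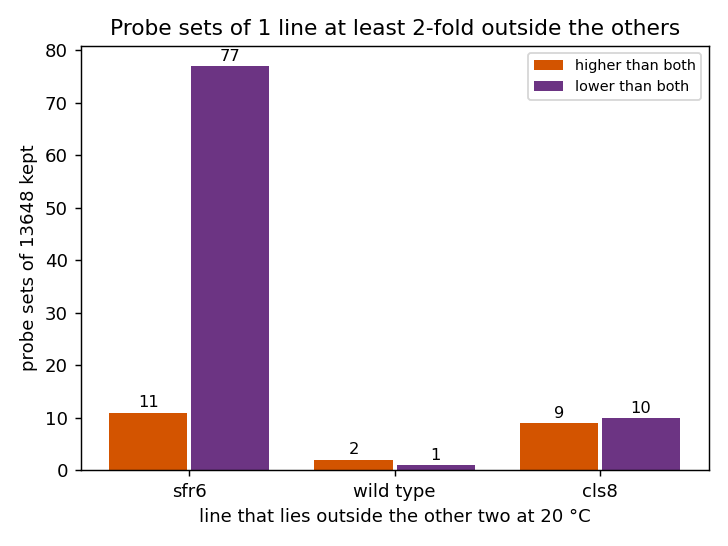
Number of the 13648 kept probe sets (vertical axis) in which 1 line, named on the horizontal axis, lay at least 2-fold above or below both other lines at 20 °C. The sfr6 bars stand at 11 higher and 77 lower, the wild-type bars at 2 and 1, and the cls8 bars at 9 and 10.

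With 1 array a line there is no replicate of sfr6 at 20 °C, and the rule of size carries no test. A limma model over all 6 arrays took the spread between the wild type and cls8 at each temperature as its yardstick and assumed that the lone sfr6 array varies like them. It had 2 residual degrees of freedom and a prior of 7.69. Its p-values, two-sided and adjusted by the Benjamini-Hochberg method over all kept probe sets, therefore measure sfr6 against a spread between lines and not between replicates. At an adjusted p of 0.05, 21 probe sets were higher (0.154%) and 104 lower (0.762%) in sfr6 than the mean of the other lines, 125 in all (0.916%), and each of them lay outside both lines. Of the 88 probe sets past 2-fold, 9 of 11 higher and 72 of 77 lower passed this test. The rule of size used the same arrays, so this overlap is not separate evidence. Leaving out 1 array moved the total of 125 to between 126 and 281. Leaving out an array of the wild type or cls8 also removes the spread at its temperature from the yardstick. A larger total without such an array is therefore not read as support. With dim probe sets included, the fit passed 1 probe set, against 701 higher and 1082 lower at an unadjusted p of 0.05.

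**Figure D2:**
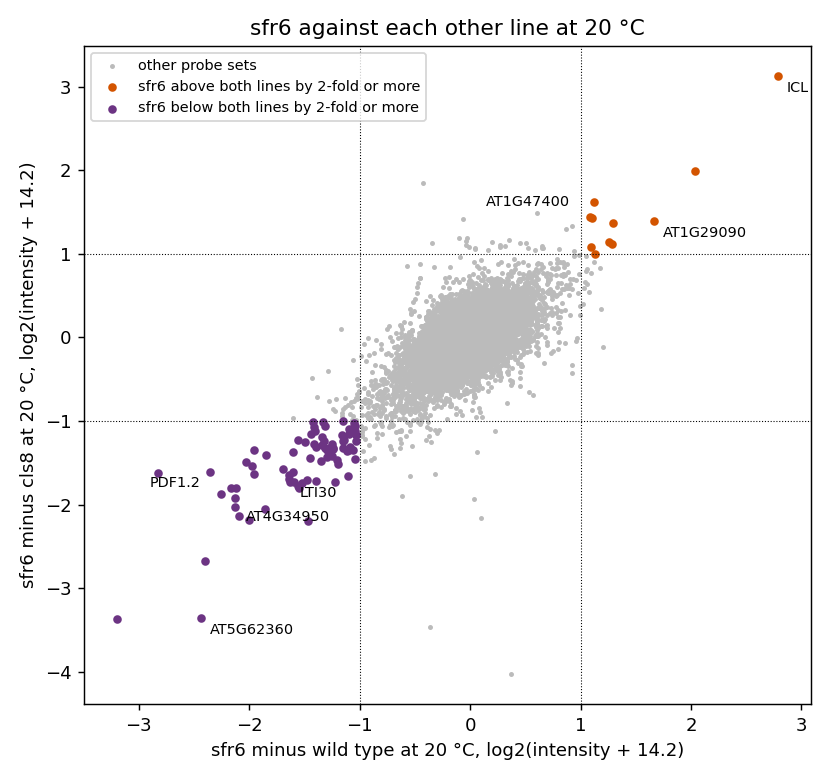
Difference of sfr6 from the wild type (horizontal) and from cls8 (vertical) at 20 °C, both on the scale of log2(intensity + 14.2), 1 point for each of the 13648 kept probe sets. Coloured points are the 11 probe sets above both lines by at least 2-fold and the 77 below both, and dotted lines mark 2-fold. ICL stands alone at the upper right.

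Of the 77 lower probe sets, 37 were paired with exactly 1 gene, and of the 11 higher ones 5 were. The families used below to order these genes were chosen after the values were seen and support no statement about a family as a whole. The median intensity of the lower probe sets was 61.1 in sfr6, 190.7 in the wild type and 205.3 in cls8, and 9 of them read below the pseudocount in sfr6. Over all kept probe sets the medians were 92.4 in sfr6, 93.7 in the wild type and 96.7 in cls8. In whole seedlings, less transcript per cell and fewer cells that hold it cannot be told apart.

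Genes of defence peptides were among the lowest in sfr6. PDF1.2, a plant defensin that is the usual marker of the response to jasmonate and ethylene, read 1.8 in sfr6, against 62 in the wild type and 44.6 in cls8. At this level PDF1.2 was dim in all 3 lines but almost without signal in sfr6. The fitted difference was -2.06 ± 0.37 (SE), with a limma adjusted p of 0.0374. Its close relative PDF1.2b read 25.9 in sfr6, 190.7 in the wild type and 108.2 in cls8. The other lines differed from each other here, and the difference of -1.98 ± 0.57 (SE) did not pass (limma adjusted p = 0.222). Without the wild type or without cls8 at 4 °C the difference stayed at -1.98, but the spread at 4 °C was then missing from the yardstick. It was -1.61 without the wild type at 20 °C and -2.35 without cls8 at 20 °C. The probe set of PDF1.2b is of a type that can also bind relatives, so both readings may share transcripts.

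AT1G66100, a thionin and hence a small antimicrobial peptide, read 281.6 in sfr6, against 903.1 in the wild type and 969.4 in cls8. Its difference was -1.68 ± 0.18 (SE; limma adjusted p = 0.00411), and THI2.2, the only measured member of the thionin list, did not pass at 1099.8 in sfr6, 1768.7 in the wild type and 1526.4 in cls8 (limma adjusted p = 0.427). AT2G38870, a protease inhibitor of the potato inhibitor I family, read 74.6 in sfr6, 223.1 in the wild type and 165.1 in cls8 (limma adjusted p = 0.0255). AT1G52000, a jacalin-like lectin, read 30.5 in sfr6, 85.3 in the wild type and 97.2 in cls8 (limma adjusted p = 0.0341). All 3 of these genes were lowest in sfr6 at 4 °C as well, where AT1G52000 read 5.7 in sfr6, 88.5 in the wild type and 124.7 in cls8.

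Of a list of 23 genes of the jasmonate and ethylene defence response, 2 were measured, PDF1.2 and PDF1.2b, and 1 passed, lower in sfr6. Among all 6 measured defensins, 1 passed, and the median difference was -0.62, beside -0.0036 over all kept probe sets. Of all kept probe sets 0.762% passed lower in sfr6. LCR69 read 836.1 in sfr6, 1369.7 in the wild type and 1386.7 in cls8, while LCR68 read 821.6, 882.1 and 351.7 in the same lines. LCR68 in sfr6 was thus between the other lines. LCR67, which is on both lists and was too dim for the test, was highest in sfr6, at 19.6 in sfr6, 1.3 in the wild type and 7.4 in cls8, and at 4 °C it read 43.9 in sfr6, 1.8 in the wild type and 7.5 in cls8. The low values thus did not extend to every defensin. None of the 14 listed genes of the salicylate response had a measured probe set.

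The cold-regulated genes of the CBF regulon are switched on by the CBF factors and protect cells from freezing and drying. Of 19 listed genes 5 were measured, and all 5 were lowest in sfr6 at 20 °C, with a median difference of -0.82. Across all kept probe sets 36.2% were below both lines and 0.762% passed the test lower in sfr6. Only 1 of the 5, LTI30, passed. LTI30, a dehydrin, read 107.6 in sfr6, against 365.9 in the wild type and 366.7 in cls8. The other lines had nearly the same value, and the difference was -1.64 ± 0.18 (SE; limma adjusted p = 0.00411).

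COR15A, a protein that guards chloroplast membranes, read 33.2 in sfr6, 48.4 in the wild type and 97.2 in cls8. COR15B, its neighbour and close relative, read 71.1 in sfr6, 110 in the wild type and 171.5 in cls8. In both, cls8 was well above the wild type, and neither passed (limma adjusted p = 0.398 for COR15A and 0.225 for COR15B). Leaving out the wild type or cls8 at 20 °C sets sfr6 against 1 other line only. Without the wild type there, the difference was -1.23 for COR15A and -1.12 for COR15B. Without cls8 there, it was -0.40 for COR15A and -0.54 for COR15B. COR47, another dehydrin, read 609.5 in sfr6, 838.2 in the wild type and 1055.8 in cls8 (limma adjusted p = 0.479). DI21, at 134.7 in sfr6, 135.8 in the wild type and 148.5 in cls8, was all but level (limma adjusted p = 0.954).

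A pair of stress-related genes outside that list were also low. AT4G30650, which belongs to the small membrane proteins that answer to low temperature and salt, read 85.1 in sfr6, 199 in the wild type and 300 in cls8 (limma adjusted p = 0.02). AT2G23120, a late embryogenesis abundant protein, read 242.8 in sfr6, 534.5 in the wild type and 558 in cls8 (limma adjusted p = 0.0134). Each of these genes was lowest in sfr6 at 20 °C, where no cold had been given. TINY (tny in the annotation), an AP2/ERF transcription factor, read 52.8 in sfr6, against 129 in the wild type and 128.7 in cls8 (limma adjusted p = 0.0172).

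**Figure D3:**
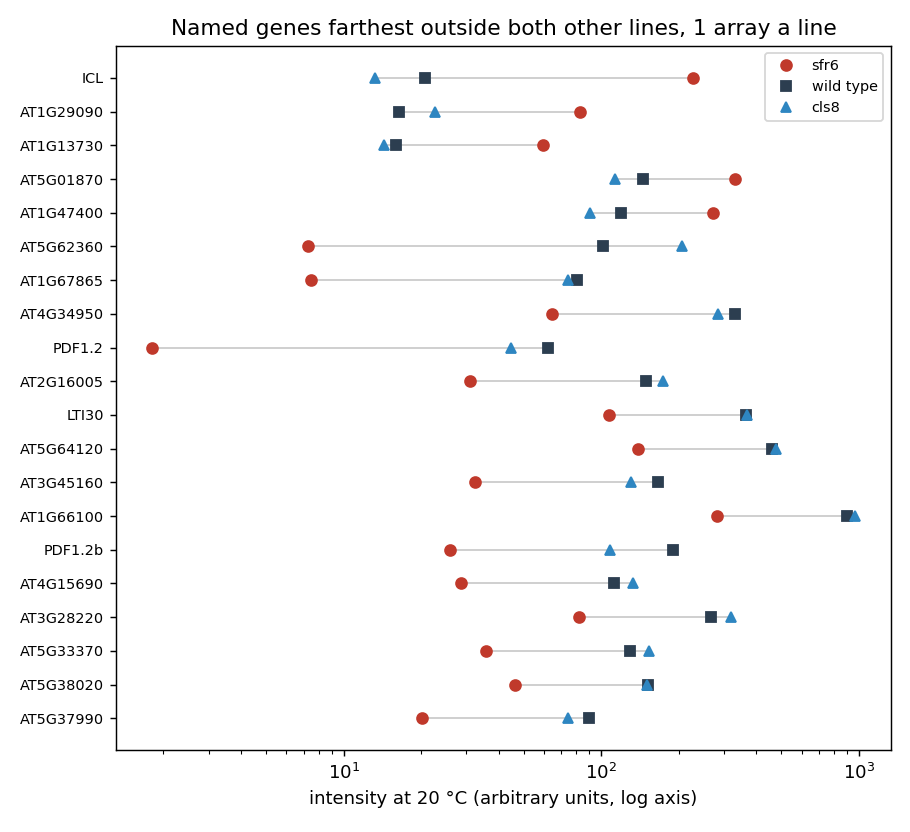
Intensity at 20 °C (horizontal, log axis, arbitrary units) of the 5 named genes farthest above and the 15 farthest below both other lines, 1 point for each array and no error bars because each line had 1 array. Circles are sfr6, squares the wild type and triangles cls8. For every gene shown the sfr6 point lies at one end of its row.

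Several of the lower genes act at the cell wall or outside the cell. AT5G62360, a member of the family of inhibitors of invertases and pectin methylesterases, read 7.3 in sfr6, against 102 in the wild type and 205.3 in cls8. This was the widest gap of a lower named gene, at -2.43, and the difference was -2.89 ± 0.34 (SE; limma adjusted p = 0.00501). AT3G47380, of the same inhibitor family, read 28.1 in sfr6, 79.5 in the wild type and 70.7 in cls8 and did not pass (limma adjusted p = 0.0936). AT5G62360 stayed far below both lines at 4 °C, at 80.5 in sfr6, 647 in the wild type and 1014.8 in cls8, while AT3G47380 in sfr6 was then close to the wild type, at 36 against 39.3.

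Secreted class III peroxidases, which oxidise wall phenolics and make or use hydrogen peroxide, gave 3 of the lower genes. AT5G64120 (peroxidase 71) read 138.6 in sfr6, 460.6 in the wild type and 478.2 in cls8 (difference -1.66 ± 0.27 SE, limma adjusted p = 0.0249). AT5G64100 read 301.1 in sfr6, 778.9 in the wild type and 622.4 in cls8 (limma adjusted p = 0.0233). AT2G37130 read 148.2 in sfr6, 375 in the wild type and 390.2 in cls8 (limma adjusted p = 0.00462). All 3 were lowest in sfr6 by a wide margin, and AT5G33370, a lipase of the GDSL family, was likewise low. AT5G33370 read 35.7 in sfr6, 129.2 in the wild type and 152.8 in cls8 (difference -1.63 ± 0.18 SE, limma adjusted p = 0.00411).

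Some of the lower genes are neighbours in the genome. Of the 42 named genes, 8 formed 4 pairs within 5 gene positions of each other, and all 8 were lower in sfr6, as were 37 of the 42. The share of such pairs among all kept named genes was not computed. The pairs are therefore a description and not a result about gene position. AT5G64100 and AT5G64120, the peroxidases above, flank AT5G64110, which read 23.6 in sfr6, 61.6 in the wild type and 44.6 in cls8 and did not pass (limma adjusted p = 0.161). AT4G15680 and AT4G15690 are adjacent genes of CC-type glutaredoxins, small redox proteins of plants. AT4G15690 read 28.7 in sfr6, 112.3 in the wild type and 132.5 in cls8 (difference -1.67 ± 0.19 SE, limma adjusted p = 0.00411). AT4G15680 read 33.3 in sfr6, 103.6 in the wild type and 104.5 in cls8 (limma adjusted p = 0.00784). The glutaredoxin gene AT4G15660 nearby was too dim for the test, at 8.1 in sfr6, 51.3 in the wild type and 35.3 in cls8, and sfr6 was again the lowest line.

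AT5G37990 and AT5G38020 encode methyltransferases of the SABATH family, which methylate small acids such as salicylate and jasmonate. AT5G38020 read 46.5 in sfr6, 151.8 in the wild type and 150.7 in cls8 (difference -1.45 ± 0.17 SE, limma adjusted p = 0.00433). AT5G37990 read 20.1 in sfr6, 90 in the wild type and 74.6 in cls8 (limma adjusted p = 0.0181). The fourth pair, AT1G67860 and AT1G67865, are adjacent. AT1G67865 read 7.5 in sfr6, 80.7 in the wild type and 74.6 in cls8 (difference -2.08 ± 0.22 SE, limma adjusted p = 0.00395), and AT1G67860 read 39.6 in sfr6, 96.3 in the wild type and 98 in cls8 (limma adjusted p = 0.041). Their further neighbour AT1G67870 read 189.5 in sfr6, 382.7 in the wild type and 200.2 in cls8, so that sfr6 and cls8 were alike there. At 4 °C AT1G67870 was below both lines in sfr6, at 165.4 in sfr6, 312.1 in the wild type and 328 in cls8. Neighbours of one family can resemble each other in sequence, and probes of one may bind the transcript of the other, so the members of a pair are not independent readings.

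Among the other low genes, AT4G34950, a transporter of the major facilitator superfamily, read 64.5 in sfr6, against 329.9 in the wild type and 283.5 in cls8. The difference was -2.02 ± 0.19 (SE; limma adjusted p = 0.00234). At 4 °C the sfr6 value was near the others, at 669.8 in sfr6, 752.3 in the wild type and 990 in cls8. The change of the sfr6 difference between the temperatures did not pass (limma adjusted p = 0.242).

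AT2G16005, with the lipid recognition domain of the MD-2 family, read 31 in sfr6, 149 in the wild type and 174 in cls8 (difference -1.96 ± 0.18 SE, limma adjusted p = 0.00234). AT3G28220, which has the TRAF-like domain, read 81.9 in sfr6, 267.7 in the wild type and 320.2 in cls8 (difference -1.68 ± 0.20 SE, limma adjusted p = 0.00501). ZW9, another TRAF-like gene, read 341.5 in sfr6, 725.5 in the wild type and 891.3 in cls8 (limma adjusted p = 0.0168). In all 3 sfr6 stood well below both other lines, also at 4 °C. AT3G45160 showed this pattern too, at 32.3 in sfr6, 166.6 in the wild type and 130 in cls8 (difference -1.80 ± 0.20 SE, limma adjusted p = 0.00411).

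A few regulators and other genes were low. AT2G47890, a B-box protein of the CONSTANS-like group, read 55.2 in sfr6, 127.6 in the wild type and 149.5 in cls8 (limma adjusted p = 0.0356). NRPB7, a subunit of RNA polymerase II, read 20.6 in sfr6, 68.2 in the wild type and 73.5 in cls8 (limma adjusted p = 0.0173). NRPB7 was dim, and at 4 °C it read 59.2 in sfr6, 80.4 in the wild type and 61.9 in cls8, where sfr6 was next to cls8. AT4G27300, a receptor kinase with an S-locus lectin domain, read 39.3 in sfr6, 104.3 in the wild type and 112 in cls8 (limma adjusted p = 0.0154). AT1G32780, related to alcohol dehydrogenases, read 22.1 in sfr6, 72.2 in the wild type and 74 in cls8 (limma adjusted p = 0.0115). The 7 lower named genes not yet described, AT3G02640, AT4G33960, AT1G34640, AT5G22580, AT1G53450, AT1G65490 and AT2G34050, had gaps from -1.29 to -1.07 and all passed the limma test, with adjusted p from 0.00501 to 0.0411.

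Fewer genes were higher in sfr6. The median intensity of the 11 higher probe sets was 270.9 in sfr6, 59.1 in the wild type and 61.7 in cls8. ICL, isocitrate lyase of the glyoxylate cycle, which turns stored fat into sugar in germinating seedlings, read 226.8 in sfr6, against 20.8 in the wild type and 13.3 in cls8. Its gap of 2.78 was the widest upward gap of all probe sets kept, and the difference was 2.96 ± 0.36 (SE; limma adjusted p = 0.00501). At 4 °C it read 270.2 in sfr6, 30.8 in the wild type and 80.1 in cls8, so it was again highest in sfr6.

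ICL stood apart from the other listed genes of stored lipid use. Of 19 genes 3 were measured and 1 passed, higher in sfr6, as did 0.154% of all kept probe sets. SDP1, the lipase that starts the breakdown of oil bodies, read 172.3 in sfr6, 127.6 in the wild type and 125.6 in cls8 and did not pass, and AIM1, an enzyme of beta-oxidation, was between the other lines. None of the 11 listed seed markers had a named probe set, so seed tissue was not checked here.

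AT1G47400, a small peptide induced by lack of iron, read 270.9 in sfr6, 119.7 in the wild type and 90.9 in cls8 (difference 1.26 ± 0.20 SE, limma adjusted p = 0.0207). At 4 °C the gap was wider, with 198.6 in sfr6, 45.4 in the wild type and 57.4 in cls8. Of 25 listed genes of iron homeostasis 2 were measured and 1 passed, higher in sfr6, as did 0.154% of all kept probe sets. The other was PYE, a transcription factor of the iron response, at 108.8 in sfr6, 86.6 in the wild type and 78.3 in cls8 (limma adjusted p = 0.608). BHLH101, also listed but too dim for the test, was lowest in sfr6, at 36.6 in sfr6, 49.9 in the wild type and 45.1 in cls8.

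AT1G29090, a cysteine protease of the papain type, read 82.6 in sfr6, 16.4 in the wild type and 22.7 in cls8 (difference 1.53 ± 0.23 SE, limma adjusted p = 0.0168). AT1G13730, an RNA-binding protein with an NTF2-like domain, read 59.7 in sfr6, 16 in the wild type and 14.4 in cls8 (difference 1.33 ± 0.25 SE, limma adjusted p = 0.0411). At 4 °C AT1G13730 in sfr6 lay between the other lines, at 115.7 in sfr6, 98 in the wild type and 159.7 in cls8. AT5G01870, a lipid transfer protein, read 330.9 in sfr6, 145.9 in the wild type and 113.4 in cls8, and its difference of 1.27 ± 0.26 (SE) did not pass (limma adjusted p = 0.0664). The difference was 1.435 without the wild type at 20 °C and 1.108 without cls8 at 20 °C.

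Some of the widest gaps were in probe sets without exactly 1 gene in the probe table. Probe set 248377_at had the widest gap of all, reading 54.4 in sfr6, 613.8 in the wild type and 695.3 in cls8 (gap -3.19, limma adjusted p = 3.54e-05). Probe set 246481_s_at read 82.2 in sfr6, 495.5 in the wild type and 601 in cls8 (gap -2.40, limma adjusted p = 9.07e-04). Both were bright in the other lines, so these differences do not rest on values near the pseudocount. Of the higher ones, 246099_at read 286.9 in sfr6, 59.1 in the wild type and 61.6 in cls8 (gap 1.99, limma adjusted p = 7.40e-04). Probe set 254687_at read 487.7 in sfr6, 195.1 in the wild type and 212.8 in cls8 (gap 1.15, limma adjusted p = 0.0068).

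Most other gene lists held no call at 20 °C. The 6 measured nuclear genes of photosynthesis had a median difference of -0.067, and in none of them did sfr6 lie outside both lines. For the 5 measured genes of chlorophyll and haem synthesis the median was 0.097, and PORB, the light-driven reductase of that pathway, read 1030.5 in sfr6, 1705.7 in the wild type and 1736.4 in cls8 without passing (limma adjusted p = 0.143). The 4 measured genes of other Mediator subunits had a median of -0.055, and the 4 of flavonoid synthesis one of -0.16. GI, the only measured gene of the circadian clock list, read 166 in sfr6, 251.5 in the wild type and 316.6 in cls8 (limma adjusted p = 0.224). The GI difference was -0.72, and it was -0.88 without the wild type at 20 °C and -0.56 without cls8 at 20 °C.

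The lists of expansins and tubulins gave small median differences. The 12 measured expansins, which loosen cell walls, had a median difference of -0.079, and the 7 tubulins one of 0.13. In the tubulins sfr6 was above both lines in 6 and below both in 1. Over all kept probe sets 34.5% were above both and 36.2% below both. XTH16, an enzyme that cuts and rejoins xyloglucan, read 147.4 in sfr6, 266.2 in the wild type and 245.3 in cls8 (limma adjusted p = 0.207). The XTH16 difference was -0.74, and it was -0.683 without the wild type at 20 °C and -0.795 without cls8 at 20 °C. GSTU22, 1 of 8 measured glutathione transferases of the tau class, read 186.3 in sfr6, 97.6 in the wild type and 106.6 in cls8 (limma adjusted p = 0.066). None of these lists held a call in either direction.

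All 69 plastid-encoded transcripts were measured and 0 passed. In 15 of them sfr6 was above both lines, in 5 below both, and in 49 between. Over all kept probe sets 34.5% were above both and 36.2% below both. Among the plastid-encoded transcripts the largest gap was 0.45. The median difference was -0.14 from the wild type and 0.40 from cls8, and cls8 was below both other lines in 63. In these transcripts cls8, not sfr6, was the line most often outside the others.

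**Figure D4:**
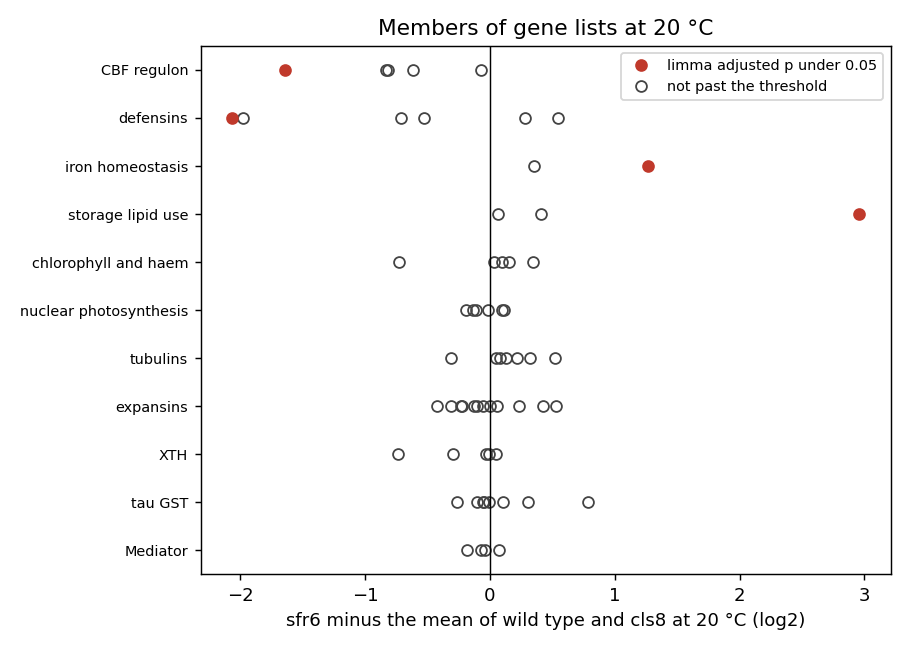
Difference of sfr6 from the mean of the wild type and cls8 at 20 °C (horizontal, log2 scale) for each measured member of 11 gene lists (rows), 1 point a probe set. Filled points passed a limma adjusted p of 0.05 and open points did not. The filled points are LTI30, PDF1.2, AT1G47400 and ICL, each the only filled point in its row.

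The arrays at 4 °C are separate plants, and they show how far the same probe sets lay outside both lines there. Of the 77 lower probe sets, 74 (96.1%) were again below both lines at 4 °C, against 30.1% of all kept probe sets, and 42 (54.5%) by at least 2-fold, against 0.718%. Of the 11 higher ones, 9 (81.8%) were again above both, against 39.7%, and 4 (36.4%) by at least 2-fold, against 0.198%. The lower genes that were not below both at 4 °C were AT1G53450, AT1G65490 and AT2G34050. The median gap of the lower probe sets was -1.27 at 20 °C and -1.16 at 4 °C, and that of the higher ones 1.12 and 0.71. The gap was wider at 4 °C in 24 of the lower probe sets and narrower in 53. Choosing probe sets for a wide gap at 20 °C favours narrower gaps at 4 °C. Neither the medians nor these counts were therefore read as a change.

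No probe set passed for a change of the sfr6 difference between the temperatures in limma, with 0 higher and 0 lower, against 224 higher (1.64%) and 379 lower (2.78%) at an unadjusted p of 0.05. The smallest adjusted p was 0.0811 over all kept probe sets, 0.194 among the higher and 0.242 among the lower ones of the 88. At an unadjusted p of 0.05, 4 of the 11 and 26 of the 77 passed. Both counts are affected by the choice of these probe sets at 20 °C and were not read as a change. Nothing is therefore called particular to 20 °C.

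**Figure D5:**
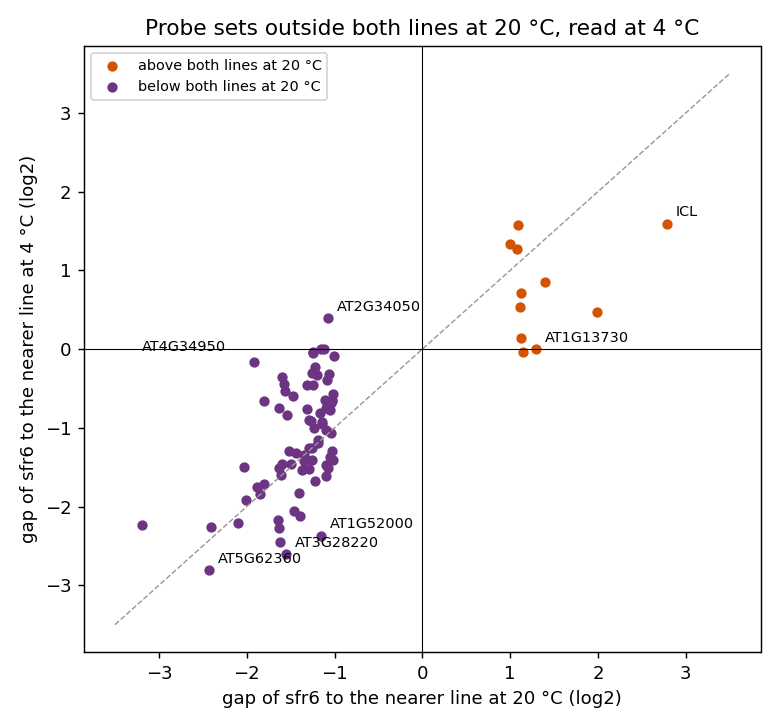
Gap of sfr6 to the nearer of the other lines at 20 °C (horizontal) and at 4 °C (vertical), log2 scale, for the 88 probe sets at least 2-fold outside both lines at 20 °C. The dashed line marks equal gaps and a gap of 0 means that sfr6 lay between the other lines. Of the 77 lower points 74 lie below 0 at 4 °C, and AT2G34050 lies above it.

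The 2-fold line cut through a continuum. Just inside it on the lower side were AT3G47380, with a gap of -1.005, and AT5G64100, with -1.01. Just outside were AT5G05960, a lipid transfer protein, with -0.99, and AT2G43535, a small cysteine-rich peptide, also with -0.99. On the higher side AT1G47400 (1.09) and AT5G01870 (1.11) were just inside, and AT2G29660 (0.99) and AT1G62290 (0.87) just outside.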

How the data were processed

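The deposited series table holds linear intensity values for 6 ATH1 arrays. The way they were calculated was not given in the sources used here. Each array has a mean of 100 once the lowest and highest 2% are left out, as found from the values. Of 22810 probe sets, 64 controls were set aside. Values were transformed as log2(intensity + 14.2), and 13648 probe sets were kept whose mean was not under the 40th percentile. A platform table gave exactly 1 gene for 13513 of the 22746 probe sets, of which 13436 matched a RefSeq table of the TAIR10.1 assembly, used for names and gene order only. The probe table names no build, so no coordinates are printed.

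A probe set was counted by a rule of size, sfr6 above or below both other lines by at least 2-fold. The limma 3.58.1 fit in R 4.3.3 (eBayes with a trend on intensity) had 4 cells, sfr6 and the other lines at each temperature. The self-test ran it on simulated data. Named genes are the 15 with the largest gap in each direction (only 5 were higher), the 2 unnamed probe sets with the largest gap in each, list members, and the 2 named probe sets on either side of the 2-fold line. Other genes that met the rule of size were named after their values were seen. The probe sets and lists were chosen with earlier results of these data known. The alternatives changed the pseudocount, filter, scaling, fold, trend, arrays and model. The thionin list was matched by whole word to leave out methionine genes. The promoter motifs planned for were not analysed here.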

Additional observations from a re-analysis of the deposited data

Results flagged for a closer look

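In 2 of the 88 probe sets the sfr6 value lay outside both other lines on opposite sides at the 2 temperatures, a pattern that the limma test of the difference did not pass for either (adjusted p = 0.242 each). AT2G34050 read 9.7 in sfr6, 36 in the wild type and 36.8 in cls8 at 20 °C, and 51.8 in sfr6, 36 in the wild type and 34.7 in cls8 at 4 °C. Its difference at 20 °C minus that at 4 °C was -1.50 on the log2 scale. Probe set 254687_at read 487.7 in sfr6, 195.1 in the wild type and 212.8 in cls8 at 20 °C, and 412.1 in sfr6, 450.3 in the wild type and 424 in cls8 at 4 °C, a change of 1.28. Groups of 1 array could not be searched for a sample that stands apart.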

How the results depend on the processing

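No paired analysis was possible because each group holds 1 array. No result changed direction under any alternative run. The 11 higher and 77 lower probe sets of sfr6 became 18 and 121 with a pseudocount of 1, 4 and 42 when the median of all values was the pseudocount, 86 and 259 at 1.5-fold, and 1 and 6 at 4-fold. With no filter 19 were higher, and with 1 other line left out the counts were 24 to 39 higher and 108 to 141 lower. By the same rule the wild type's 3 became 17 with a pseudocount of 1, 0 with the median, 17 with no filter, 5 after quantile scaling, 67 at 1.5-fold and 0 at 4-fold, and the 19 of cls8 became 33, 10, 42 with no filter, 124 at 1.5-fold and 3 at 4-fold. The 21 higher limma calls became 0 with no filter, 11 with no intensity trend, 71 from the 3 arrays at 20 °C alone, 117 with additive terms for line and temperature, and 22 to 71 with 1 array left out. The 104 lower calls became 1 with no filter, 202 from the arrays at 20 °C alone, 312 with additive terms and 104 to 210 with 1 array left out. The difference between temperatures passed for 1 higher probe set with the median as pseudocount. With no filter every named gene lost its call. AT4G34950 also lost it with additive terms (limma adjusted p = 0.0856), PDF1.2 with the median as pseudocount (0.151) and with no trend (0.053), and AT1G13730 with the median (0.119), no trend (0.0564) and additive terms (0.348). With a pseudocount of 1, PDF1.2 fell under the filter and was not tested. COR15A, COR15B, COR47, GI, PORB, XTH16, AT5G01870 and PDF1.2b passed with additive terms. Leaving out an array of the wild type or cls8 removes the spread at its temperature from the limma yardstick. The fit of the arrays at 20 °C alone likewise lacks the spread at 4 °C. The limma counts of these fits are therefore not set against the main ones. What else moved the counts and calls was not tested. The quantile scaling and the alternatives left the median of all differences between -0.010 and 0.016. The lowest values, such as 1.8 for PDF1.2, lie below the pseudocount, so the size of those falls is limited by it.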

Other observations

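Another 27 probe sets met the 2-fold rule but were too dim on average to be kept, 8 higher and 19 lower in sfr6. At 4 °C 6 of the 8 and 12 of the 19 were outside both lines in the same direction by any amount. Among kept probe sets 39.7% were above both and 30.1% below both at 4 °C, and no such share was computed for dim ones. The 27 were not tested, and those named here were chosen after their values were seen. AT4G36700, a cupin of the seed storage protein fold, read 59.5 in sfr6, 3.4 in the wild type and 1.9 in cls8. AT1G13610, an alpha/beta hydrolase, read 50.2 in sfr6, 4.1 in the wild type and 2.3 in cls8. On these arrays both were near the floor in the other lines and clearly above it in sfr6. Of 2 dim genes related to the berberine bridge enzyme, AT2G34810 read 0.5 in sfr6, 28.1 in the wild type and 43.2 in cls8, and AT5G44400, near PDF1.2 in the genome, read 1.6 in sfr6, 42 in the wild type and 34.5 in cls8. PDF1.2 itself was likewise low in sfr6. The nearby AT5G44410, at 53.9 in sfr6, 53 in the wild type and 64.8 in cls8, was not below both lines. Nor was AT5G44440, at 6.8 in sfr6, 3.5 in the wild type and 5.8 in cls8.

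Among genes that passed in limma below 2-fold, also chosen after their values were seen, PPDK, which makes phosphoenolpyruvate from pyruvate, read 201.2 in sfr6, 104.9 in the wild type and 105.5 in cls8 (limma adjusted p = 0.0374). HAT2, a homeodomain-leucine zipper factor, read 141.7 in sfr6, 64.7 in the wild type and 77.7 in cls8 (limma adjusted p = 0.0449). SAPX, the stromal ascorbate peroxidase, was lower, at 51.6 in sfr6, 115.1 in the wild type and 135 in cls8 (limma adjusted p = 0.0267).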
